A study of Danio rerio with 2 samples.

Results

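The genes described here are *glula*, *npl*, *tfec*, *apoeb*, *cx30.3* and *crygn2*, 6 of the 36351 genes in the count tables, found by their symbols. They were picked because they stood among the genes of a venous endothelial cluster in these same cells, so their excess in vein cells is given as a description and not as a test. Cells positive for *kdrl*:mCherry were sorted at 24 h post fertilization (hpf) from *akt*Δ/Δ embryos, which carried the alleles *akt1* ya348, *akt2* ya349, *akt3a* ya350 and *akt3b* ya351, and from WT embryos. Both genotypes carried the Tg(kdrl:mCherry) reporter, in which regulatory sequence of the vascular receptor gene *kdrl* drives a red fluorescent protein. Embryos of a genotype were combined and gave 1 droplet library, so no difference between genotypes had a replicate check, and no p-value was computed anywhere. Akt kinases transmit signals from growth factor receptors, and the study asked how their loss affected artery and vein cells.

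Venous endothelial cells of the early fish embryo line the cardinal vein and its plexus and take up circulating material through scavenger receptors. *stab2* encodes such a receptor for hyaluronan and other ligands, *dab2* an adaptor of clathrin-mediated endocytosis, and *lyve1b* a hyaluronan receptor shared by veins and lymphatic vessels. The 6 genes have roles outside the vessel wall that are better known. *glula* encodes glutamine synthetase, which joins ammonia to glutamate, and *npl* encodes N-acetylneuraminate pyruvate lyase, which cleaves sialic acid. *tfec* encodes a basic helix-loop-helix transcription factor of the Mitf, Tfe3 and Tfeb family, whose members control pigment cell and lysosomal genes. *apoeb* encodes a lipid-carrying apolipoprotein E, *cx30.3* a connexin of gap junctions, and *crygn2* a gamma-N crystallin, of the family that fills the eye lens.

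The libraries held 9464 *akt*Δ/Δ and 16400 WT cells, with 91736598 and 128759603 unique molecular identifiers (UMIs, each the tag of 1 captured mRNA molecule) and medians of 8247 and 5930.5 UMIs per cell. A count of 225 barcodes occurred in both libraries, 2.38% of the *akt*Δ/Δ barcodes. Clustering gave 21 clusters, of which 8 held the highest *kdrl* and *cdh5* levels and were taken as endothelial, so the sort also held blood, neuronal, muscle, epidermal and other cells. Within the endothelial clusters, a cell with at least 1 UMI of each of *stab2*, *dab2* and *lyve1b* was called a vein cell, and one with UMIs of *dll4*, *efnb2a* and *notch3* all at once an artery cell. The 87 *akt*Δ/Δ and 131 WT cells that met both rules were counted in neither class. Vein cells numbered 2138 in the *akt*Δ/Δ library and 3107 in the WT library, 32.8% and 35.2% of endothelial cells, with medians of 10506 and 6672 UMIs. The other endothelial cells numbered 4385 and 5723, and cells outside the endothelial clusters 2939 and 7568. The wider venous list of 10 markers had a summed level of 3092 *akt*Δ/Δ and 3744 WT UMIs per 1000000 UMIs (CPM) in vein cells, against 1267 and 1267 CPM in other endothelial cells. That list includes the 3 genes that chose the vein cells, so the difference is no check of the class. *stab2*, *dab2* and *lyve1b* were at 844, 960 and 354 CPM in *akt*Δ/Δ and 1006, 1102 and 611 CPM in WT vein cells. Of the mutated genes, *akt2* was at 9.04 CPM in *akt*Δ/Δ and 13.3 CPM in WT endothelial cells, a log2 ratio of -0.55 (-0.72 to -0.39). *akt3b* had 467 and 479 UMIs and a ratio of -0.13 (-0.32 to 0.06), *akt3a* had 43 and 36 UMIs and a ratio of 0.16 (-0.51 to 0.84), and *akt1* had 1 and 2 UMIs. Lower mRNA was thus measured for *akt2* alone, and the 3′ tags do not read the mutations themselves, so these counts do not check the labels.

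All 6 genes were higher in vein cells than in other endothelial cells of both libraries. Levels below are UMIs summed over the cells of a class, divided by all their UMIs and given as CPM, with exact Poisson 95% intervals that cover counting error only. *glula* in vein cells was at 403 CPM in the *akt*Δ/Δ library (395 to 411) and 769 CPM in the WT library (757 to 780), against 156 and 215 CPM in the other endothelial cells of the same libraries. *npl* in vein cells was at 275 CPM in the *akt*Δ/Δ library (269 to 282) and 364 CPM in the WT library (356 to 372), against 117 and 110 CPM in other endothelial cells. These amount to log2 ratios of vein over other endothelial cells of 1.37 in *akt*Δ/Δ and 1.84 in WT cells for *glula*, and of 1.23 and 1.73 for *npl*.

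*tfec*, the transcription factor, stood in vein cells at 154 CPM in the *akt*Δ/Δ library (149 to 159) and 248 CPM in the WT library (241 to 254), against 69.6 and 82.1 CPM in other endothelial cells. *apoeb* was the least restricted of the 6, with vein-cell levels of 204 CPM (199 to 210) in the *akt*Δ/Δ and 220 CPM (214 to 227) in the WT library, against 141 and 106 CPM in other endothelial cells. Its log2 ratio was 0.54 in *akt*Δ/Δ cells (95% binomial interval 0.48 to 0.59) and 1.06 in WT cells (0.996 to 1.13). The gap junction gene *cx30.3* had vein-cell levels of 34.7 CPM (32.4 to 37.2) in the *akt*Δ/Δ and 77.9 CPM (74.2 to 81.6) in the WT library, against 15.4 and 24.7 CPM in other endothelial cells. The crystallin gene *crygn2* had vein-cell levels of 27.7 CPM (25.6 to 29.9) in the *akt*Δ/Δ and 42.3 CPM (39.7 to 45.1) in the WT library, against 11.6 and 11.2 CPM in other endothelial cells. For each gene the intervals of vein and other endothelial cells did not overlap in either library.

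A log2 ratio of at least 1 in both libraries was reached by 5 of the 6 genes, all but *apoeb*. Over all 14423 genes with at least 20 UMIs in each library, 1.57% reached it, a share from which nothing is read here because the genes were picked on this contrast. In each of the 6 the ratio was smaller in *akt*Δ/Δ than in WT cells, a difference that was not tested. The share of all genes with this order was not computed. *stab2* and *dab2* had the same order and *lyve1b* the reverse. A deeper cell meets the marker rule more easily, and *akt*Δ/Δ vein cells were deeper. With clusters 1 and 12, described below, over the remaining endothelial clusters, the order reversed for *glula* (3.399 and 3.293), *apoeb* (3.60 and 3.32) and *cx30.3* (4.25 and 3.94). It held for *npl*, *tfec* and *crygn2*. Against artery cells alone, 401 in the *akt*Δ/Δ and 487 in the WT library, the log2 ratios of vein cells were 2.03 and 2.76 for *npl*, 2.16 and 3.31 for *tfec*, and 0.37 and 1.82 for *apoeb*.

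**Figure D1:**
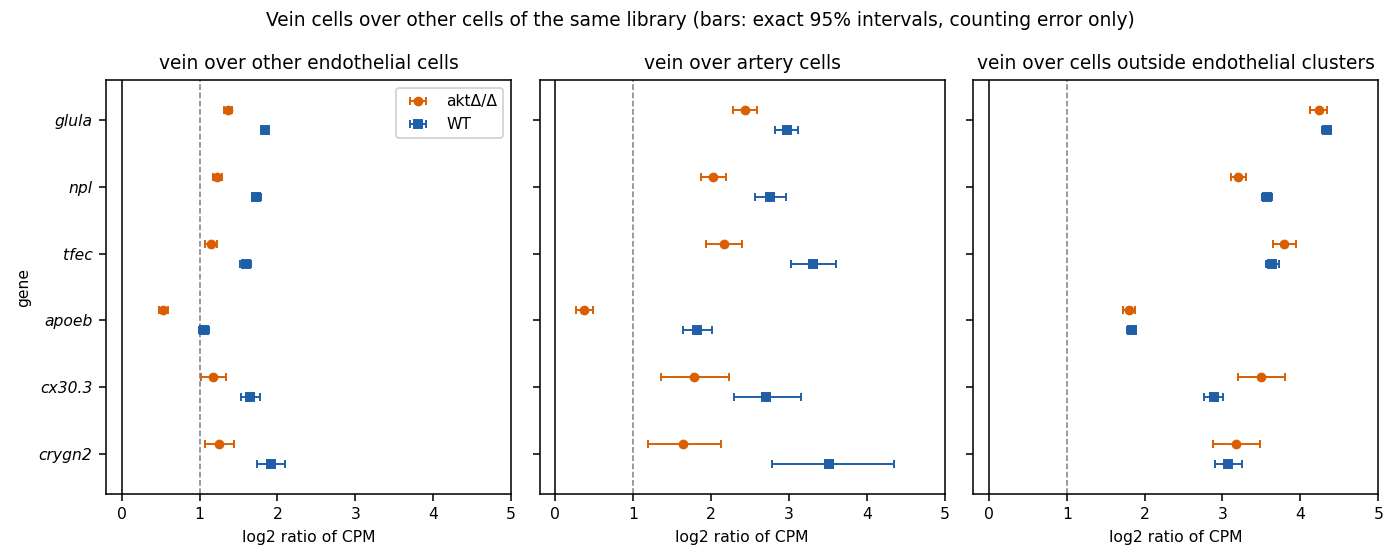
Log2 ratio of CPM in vein cells (x axis) over other endothelial cells, over artery cells and over cells outside the endothelial clusters (panels from left to right) for each of the 6 genes in the *akt*Δ/Δ and the WT library, with exact 95% binomial intervals that cover counting error only. All ratios lie above 0, and *apoeb* has the lowest over other endothelial cells, at 0.54 in *akt*Δ/Δ and 1.06 in WT cells.

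The cell clusters drew a sharper line than the 3 markers did. The 6 genes were concentrated in 2 endothelial clusters, 1 and 12. Cluster 1 held 8 of the 10 venous markers among its genes with raised levels, and its leading genes included *gcga*, *pnoca* and *fmn1*. Cluster 12 held 7 of them and was led by *mrc1b*, the posterior homeobox genes *hoxc11b* and *hoxa11a*, and *mafa*. The clusters were built from the same counts, and which of the 6 were among the variable genes used was not checked. The differences between clusters are thus descriptions.

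In cluster 1, *glula* was at 715 CPM in *akt*Δ/Δ and 1137 CPM in WT cells, and in cluster 12 at 635 and 1147 CPM. Across the 6 remaining endothelial clusters, pooled, it was at 66.1 CPM in *akt*Δ/Δ and 116 CPM in WT cells. *apoeb*, with the smallest ratio between vein and other endothelial cells by markers, stood at 466 and 401 CPM in cluster 1 and at 449 and 349 CPM in cluster 12, against 38.1 and 39.5 CPM in the remaining endothelial clusters. The log2 ratio of clusters 1 and 12 over the remaining endothelial clusters was 3.60 in *akt*Δ/Δ and 3.32 in WT cells for *apoeb*, and for the others it lay between 2.55 and 4.25 in *akt*Δ/Δ cells and between 2.79 and 4.03 in WT cells.

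Vein cells themselves fell on both sides of that line. Clusters 1 and 12 held 982 of the *akt*Δ/Δ vein cells (45.9%) and 1665 of the WT vein cells (53.6%), while clusters 0 and 10 held 992 (46.4%) and 1242 (40.0%). Vein cells of cluster 1 had *glula* at 760 CPM in *akt*Δ/Δ and 1224 CPM in WT cells, against 87.1 and 185 CPM in vein cells of cluster 0. *apoeb* was at 423 and 365 CPM in vein cells of cluster 1, against 22.8 and 28.8 CPM in those of cluster 0. Thus 760 *akt*Δ/Δ and 1081 WT cells of cluster 0 had at least 1 UMI of each of *stab2*, *dab2* and *lyve1b*, with lower *glula* and *apoeb* than vein cells of cluster 1. The 3 markers were lower there too, at a summed 1174 CPM over all cells of cluster 0 and 3022 CPM over those of cluster 1, both libraries pooled. *tfec* was the least divided, at 240 and 351 CPM in vein cells of cluster 1 and 89.2 and 126 CPM in vein cells of cluster 0.

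Between clusters 1 and 12, *crygn2*, *npl* and *cx30.3* were higher in cluster 1 in both libraries. *crygn2* stood at 60.7 CPM in *akt*Δ/Δ and 71.5 CPM in WT cells of cluster 1, against 22.1 and 40.3 CPM in cluster 12. *npl* was at 485 and 558 CPM in cluster 1, against 347 and 452 CPM in cluster 12. *cx30.3* was at 73.8 and 132 CPM in cluster 1, against 49.6 and 104 CPM in cluster 12. For *tfec* the intervals of the 2 clusters overlapped in both libraries, and for *glula* they overlapped in the WT library. The log2 ratio of *tfec* in cluster 1 over cluster 12 was 0.12 (0.02 to 0.23) in *akt*Δ/Δ and -0.09 (-0.19 to 0.01) in WT cells.

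**Figure D2:**
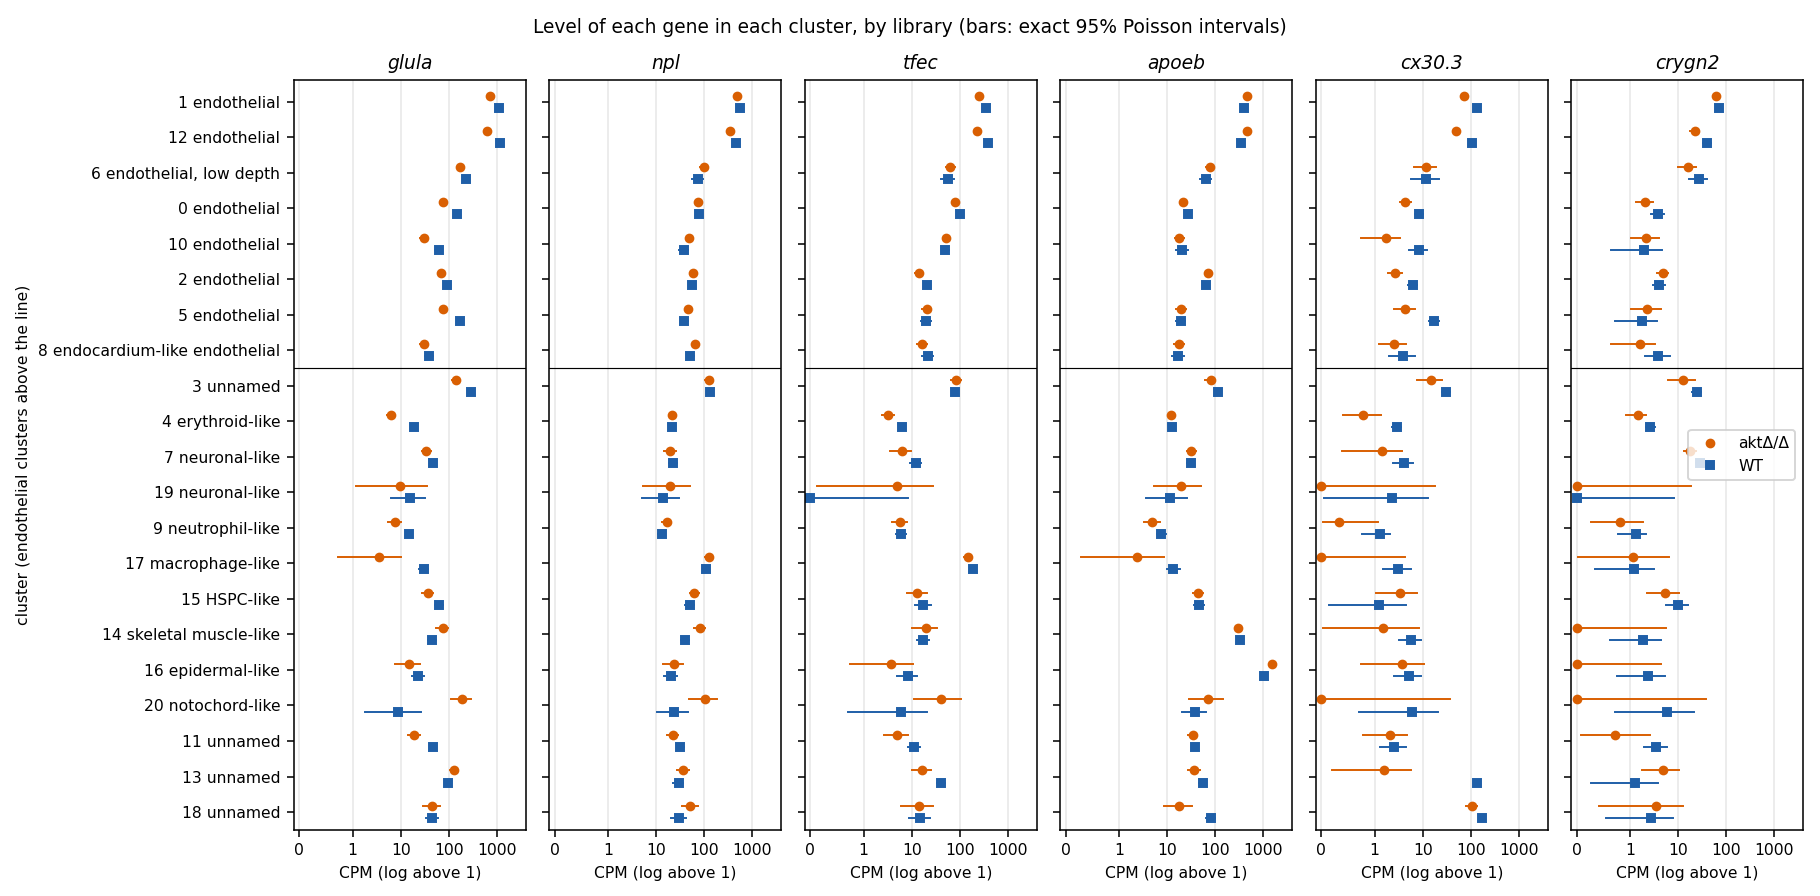
Level in CPM (log axis) of each of the 6 genes in every cluster, for the *akt*Δ/Δ and the WT library, with exact Poisson 95% intervals. Clusters 1 and 12 lie above the other endothelial clusters for each gene, though for *crygn2* the intervals of cluster 12 and endothelial cluster 6 overlap in both libraries. *apoeb* peaks in the epidermal-like cluster 16, at 1520 CPM in *akt*Δ/Δ and 1020 CPM in WT cells, and *tfec* has a further high value in the macrophage-like cluster 17.

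Because a deeper cell is more likely to show all 3 venous markers, the cells were also thinned to 2000 UMIs each, and endothelial cells were then split by how many of *stab2*, *dab2* and *lyve1b* they still showed. *glula* was at 53.8, 137, 397 and 637 CPM in *akt*Δ/Δ endothelial cells with 0, 1, 2 and 3 of the markers, and at 75.2, 196, 612 and 994 CPM in the WT cells. *npl* took the values 38.6, 99.8, 288 and 394 CPM in *akt*Δ/Δ cells and 34.8, 98.9, 326 and 458 CPM in WT cells. The other members climbed with the marker number as well, with 1 exception. *apoeb* was at 263 CPM in *akt*Δ/Δ cells with 2 markers and 259 CPM in those with 3, against 214 and 268 CPM in WT cells. The share of cells that lay in clusters 1 and 12 went with the marker number too, at 1.77%, 12.7%, 50.4% and 64.8% of *akt*Δ/Δ cells and 1.41%, 11.2%, 47.2% and 65.2% of WT cells.

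**Figure D3:**
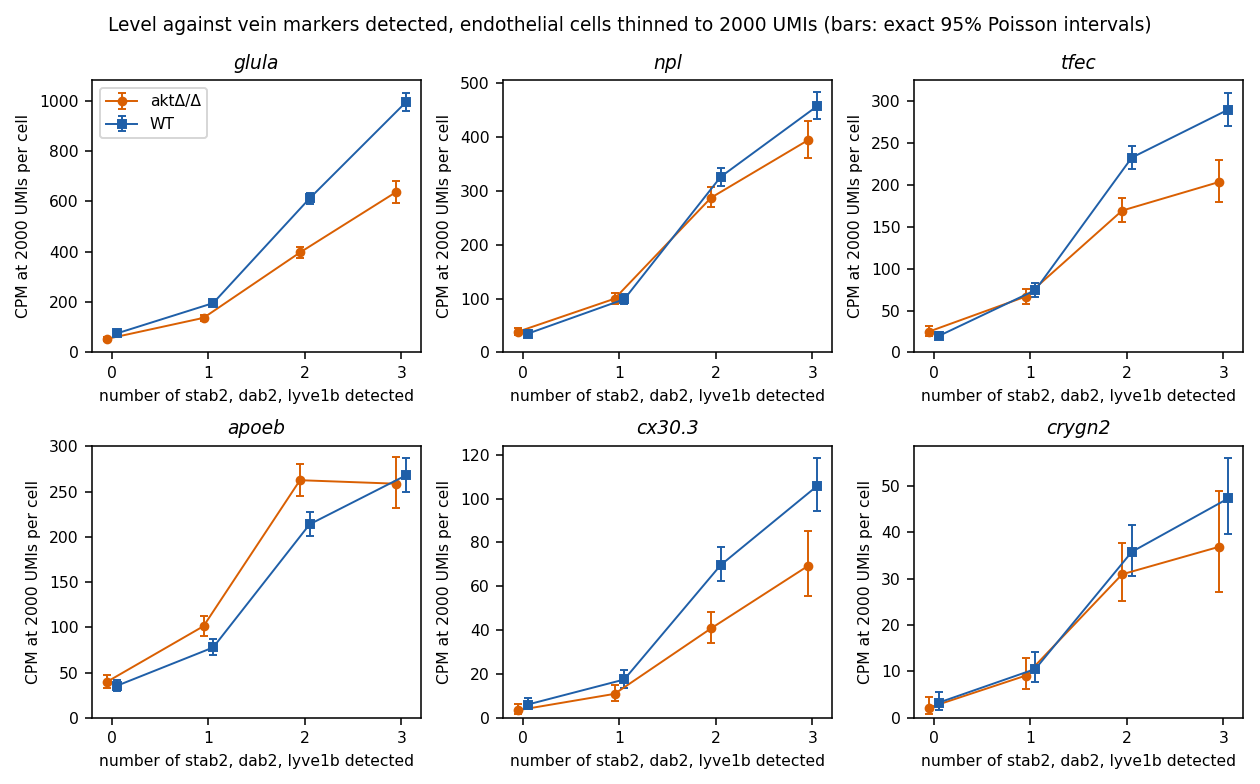
Level in CPM of each gene (y axis) in endothelial cells thinned to 2000 UMIs, by the number of *stab2*, *dab2* and *lyve1b* detected in the cell (x axis, 0 to 3), for the *akt*Δ/Δ and the WT library. Each line climbs from 0 to 3 markers except *apoeb* in *akt*Δ/Δ cells, which is level between 2 markers (263 CPM) and 3 markers (259 CPM).

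Against all cells outside the endothelial clusters, vein cells were higher for 6 of 6 genes by a log2 ratio of at least 1 in both libraries. Of 16090 genes measured there, 21.3% passed the same limit. The ratios were 4.24 in *akt*Δ/Δ and 4.34 in WT cells for *glula*, 3.203 and 3.57 for *npl*, 3.80 and 3.64 for *tfec*, 1.80 and 1.84 for *apoeb*, 3.50 and 2.89 for *cx30.3*, and 3.17 and 3.08 for *crygn2*. Vein cells made up 25.7% of the UMIs of the *akt*Δ/Δ library and 17.2% of those of the WT library, yet held 61.6% and 64.2% of the *glula* UMIs.

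Droplets also take up free RNA, which can give a cell UMIs of a gene it does not transcribe, and the erythroid-like cells of cluster 4 served as a measure of that background. With every cell thinned to 2000 UMIs, *glula* was seen in 34.43% of 2094 *akt*Δ/Δ vein cells and 53.0% of 3053 WT vein cells, against 0.847% of 590 and 3.23% of 1855 erythroid-like cells. Without thinning, the shares were 56.5% and 71.4% of vein cells at medians of 10506 and 6672 UMIs, and 12.3% and 15.3% of erythroid-like cells at medians of 29229 and 20254 UMIs. *npl* was seen in 35.1% and 41.96% of thinned vein cells, against 4.24% and 4.58% of erythroid-like cells. For *cx30.3* the thinned shares were 6.59% of *akt*Δ/Δ and 12.2% of WT vein cells, against 0 of 590 *akt*Δ/Δ erythroid-like cells, which allows a share of up to 0.623%, and 0.701% of the WT ones. *crygn2* gave 4.44% and 6.52% of thinned vein cells, with 0 of 590 and 0.755% of erythroid-like cells.

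Some of the genes were also high in cells outside the endothelial clusters. *tfec* was at 148 CPM in *akt*Δ/Δ and 190 CPM in WT macrophage-like cells (44 and 228 cells of cluster 17), and its log2 ratio of vein over macrophage-like cells was 0.06 in *akt*Δ/Δ cells (-0.20 to 0.33) and 0.38 in WT cells (0.26 to 0.50). Those cells carried little else of the set except *npl*, at 124 and 110 CPM. Of the 10 macrophage markers, the summed level in vein cells was 2.46 CPM in *akt*Δ/Δ and 8.76 CPM in WT cells, and *marco*, *c1qa* and *c1qb* were at 0 in both. In the *akt*Δ/Δ library *c1qa* was at 0 outside the endothelial clusters as well.

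*apoeb* reached its highest level in the epidermal-like cells of cluster 16, at 1520 CPM in *akt*Δ/Δ and 1020 CPM in WT cells, and a single *akt*Δ/Δ cell held 217 of the 1250 UMIs there. It was also at 294 and 328 CPM in skeletal muscle-like cells. *cx30.3* was high in the unnamed cluster 18, led by the transport genes *kcnj1a.5* and *atp1a1a.2* and by *agrp*, at 104 CPM in *akt*Δ/Δ and 171 CPM in WT cells. In cluster 13, which mixed pigment-cell and fibroblast markers, *cx30.3* had 2 UMIs in 121 *akt*Δ/Δ cells and 313 UMIs in 340 WT cells. Of those, 306 UMIs lay in 36 WT cells with at least 4 of the pigment markers, where the level was 814 CPM, and the *akt*Δ/Δ library held only 9 such cells with 1 UMI, at 6.14 CPM. That limit of 4 markers was chosen after the values were seen.

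*crygn2* was found in a few cells of the neuronal-like cluster 7, where 1 cell held 43 of 49 UMIs in the *akt*Δ/Δ library and 1 cell held 100 of 135 in the WT library. The lens marker list of 7 genes was at 3.52 CPM in *akt*Δ/Δ and 4.34 CPM in WT vein cells, against 15.3 and 11.4 CPM in other endothelial cells. *cryaa*, *crygm2d1* and *lim2.3* were at 0 in vein cells, but *cryaa* was at 0 in the other endothelial and the outside cells too. Outside the endothelial clusters the list was at only 5.61 CPM in *akt*Δ/Δ and 6.56 CPM in WT cells. The crystallin gene *cryba4* alone was at 3.31 CPM in *akt*Δ/Δ and 3.97 CPM in WT vein cells. In other endothelial cells it was at 14.97 and 10.59 CPM. These levels are close to the list sums, so no difference in lens genes as a group is read from those sums. *glula* stood at 143 CPM in *akt*Δ/Δ and 286 CPM in WT cells of cluster 3, a group of shallow cells with medians of 683 and 878 UMIs that received no name. Cluster 3 had the highest *kdrl* and *cdh5* means outside the endothelial clusters. Its summed *stab2*, *dab2* and *lyve1b* level was 1016 CPM, against 1174 CPM in endothelial cluster 0, so no source outside the endothelium is read from it. Without cluster 3, the *glula* ratio of vein over outside cells was 4.47 in *akt*Δ/Δ and 4.83 in WT cells.

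Single cells of the venous clusters showed several of the genes at once. At 2000 UMIs per cell, at least 1 of the 6 was seen in 91.8% of *akt*Δ/Δ and 94.99% of WT cells of cluster 1, and at least 3 in 37.9% and 53.2%. In all vein cells those shares were 64.3% and 75.0% for at least 1 gene and 18.3% and 31.1% for at least 3. In other endothelial cells they were 36.3% and 39.1% for at least 1 gene and 5.74% and 6.98% for at least 3. In cells outside the endothelial clusters, at least 3 of the genes were seen in 0.511% of *akt*Δ/Δ and 1.05% of WT cells.

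The level of each gene was higher in vein cells that also showed another of the 6. For each ordered pair, the level of 1 gene was compared between vein cells with and without a UMI of the other at 2000 UMIs per cell, and all 30 log2 ratios were above 0 in both libraries, with medians of 1.247 in *akt*Δ/Δ and 1.197 in WT cells. The ratios were smaller within 1 cluster. Within cluster 1 alone the medians were 0.34 in *akt*Δ/Δ and 0.41 in WT cells, and the interval lay above 0 for 16 of the 30 pairs in *akt*Δ/Δ and 28 in WT cells. The 2 negative ratios, both in *akt*Δ/Δ cells, paired *apoeb* with *cx30.3* (-0.04 and -0.07). Cells of 1 library share their source, so no interval over cells speaks to the genotypes.

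Other genes followed the same pattern over clusters. Pearson's r of log2(CPM + 1) over 41 points, each a cluster in 1 library, was computed against 13696 genes, and points of 1 library share its depth. The genes nearest to *glula* were *dab2* (r = 0.89), *sash1b* (0.87) and *stab2* (0.87), of which the first and last chose the vein cells. *npl* and *tfec* were each other's nearest gene (0.90). *npl* was followed by *lgmn*, a lysosomal protease (0.87), and *amdhd2*, a deacetylase of N-acetylglucosamine-6-phosphate (0.85), and *tfec* by *amdhd2* (0.88) and the lysosomal protease gene *ctsz* (0.86). *apoeb* had the apolipoprotein gene *apoc1* nearest (0.88), then *hoxa11a* and *hoxc11b* (both 0.81). *cx30.3* was nearest to *frk*, *naalad2* and *ap1s3b* (0.75, 0.75 and 0.74), and *crygn2* to the aquaporin gene *aqp8a.1* (0.79), *celsr1b* (0.77) and *gdf6a* (0.75). The weakest likeness between any members was that of *tfec* and *apoeb* (0.27).

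In *akt*Δ/Δ vein cells 4 of the 6 genes were lower than in WT vein cells by a log2 ratio of at least 0.5, namely *glula*, *tfec*, *cx30.3* and *crygn2*, and none was higher by that much. Of all 14440 genes measured in vein cells of both libraries, 18.6% were as much lower and 9.18% as much higher. Among the 8537 genes with at least 200 UMIs there, as each of the 6 had, 9.87% were as much lower. The median over all genes was -0.09. The comparison rests on 1 library of each genotype, so it describes these libraries and not the effect of the mutations.

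*glula* was at 403 CPM in *akt*Δ/Δ and 769 CPM in WT vein cells, a log2 ratio of -0.93 (95% binomial interval -0.97 to -0.90). *cx30.3* had the lowest ratio, -1.17 (-1.29 to -1.04), from 818 UMIs in *akt*Δ/Δ and 1724 in WT vein cells. The ratio was -0.69 (-0.75 to -0.62) for *tfec*, -0.61 (-0.76 to -0.47) for *crygn2*, -0.40 (-0.45 to -0.35) for *npl* and -0.11 (-0.17 to -0.05) for *apoeb*, which lay close to the median of all genes.

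The libraries also differed in which vein cells they held. Clusters 1 and 12 took a smaller share of the *akt*Δ/Δ vein cells (45.9%) than of the WT vein cells (53.6%), and the marker *lyve1b* itself had a log2 ratio of -0.79 in vein cells. Within the vein cells of cluster 1 the ratios of *akt*Δ/Δ over WT were -0.69 for *glula*, -0.55 for *tfec*, -0.91 for *cx30.3*, -0.21 for *npl* and -0.18 for *crygn2*, and *apoeb* was higher, at 0.21 (0.15 to 0.28). Within the vein cells of cluster 12 they were -0.78 for *glula*, -0.75 for *tfec*, -0.99 for *cx30.3*, -0.38 for *npl*, -1.38 for *crygn2* and -0.24 for *apoeb*. Within the vein cells of cluster 0 they were -1.08 for *glula*, -1.13 for *cx30.3*, -1.29 for *crygn2* and -0.33 for *apoeb*. Over all cells of cluster 12, whether or not they had the 3 markers, *apoeb* was at 0.36 (0.25 to 0.48) and *crygn2* at -0.86, so the sign of *apoeb* there depended on the marker rule. *glula*, *cx30.3*, *tfec* and *crygn2* lay below 0 in each of these groups, *tfec* in vein cells of cluster 0 by the levels given above. Over all cells of cluster 12, *tfec* was at 231 CPM in *akt*Δ/Δ and 379 CPM in WT cells. No difference between the clusters was tested, and the part of the composition in the values over all vein cells was not tested either.

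**Figure D4:**
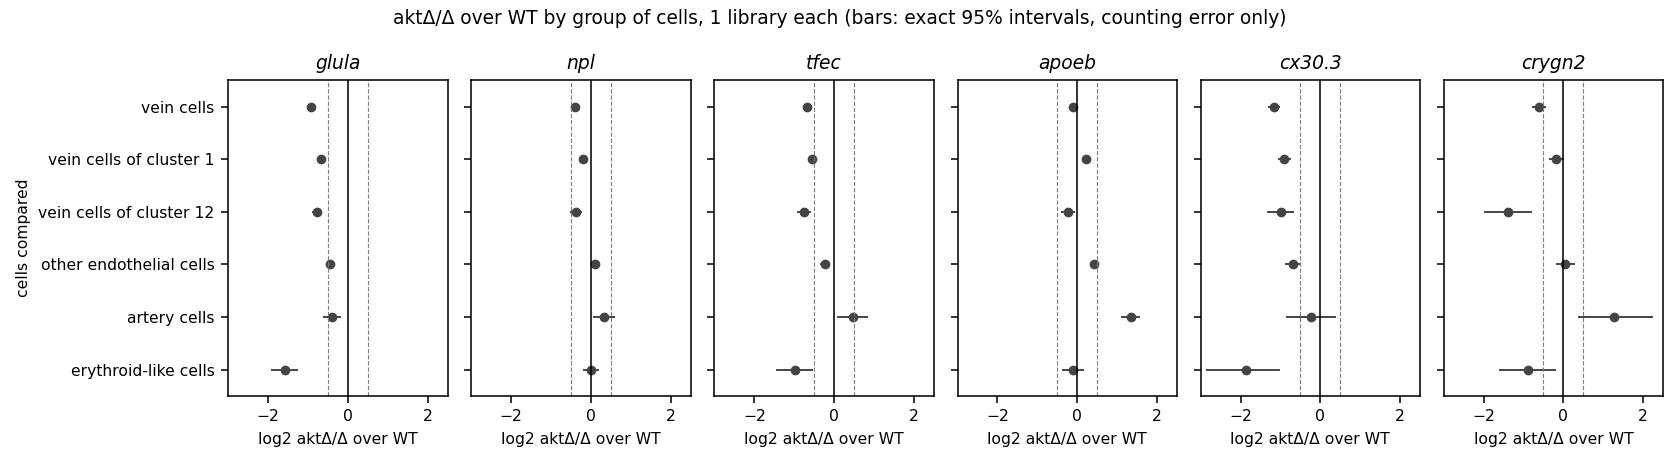
Log2 ratio of CPM in *akt*Δ/Δ over WT cells (x axis) for each of the 6 genes, with 1 library per genotype. Ratios are given for all vein cells, for only the vein cells within each venous cluster, and for other classes of cells. The exact 95% binomial intervals cover counting error only. *glula* and *cx30.3* lie below 0 in vein cells (-0.93 and -1.17) and in erythroid-like cells (-1.58 and -1.87), while *apoeb* lies on either side of 0.

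Lower levels of *glula*, *cx30.3* and *tfec* in the *akt*Δ/Δ library were also seen outside vein cells, and of *crygn2* outside the endothelial clusters. In the other endothelial cells the ratios were -0.46 for *glula* and -0.69 for *cx30.3*, and in all cells outside the endothelial clusters -0.83 and -1.77. Without cluster 13, whose WT cells held 313 of the 797 WT *cx30.3* UMIs outside the endothelial clusters, those values were -1.05 for *glula* and -1.07 for *cx30.3*, a choice made after seeing the data. Over the clusters where it could be measured, *cx30.3* was lower in *akt*Δ/Δ cells in 13 of 13, with the interval below 0 in 10. *glula* had its interval below 0 in 14 of 20 clusters and above 0 in 3. *tfec*, at -0.24 in other endothelial cells and -0.84 outside the endothelial clusters, had it below 0 in 9 of 19 and above 0 in 0. *crygn2*, at 0.05 (-0.16 to 0.27) and -0.71 in those cells, had it below 0 in 6 of 10 and above 0 in 0. The intervals of *npl* and *apoeb* lay below 0 in 3 and 6 clusters and above 0 in 4 each. In erythroid-like cells, taken as the background, the ratio of *glula* was -1.58, from 6.34 CPM in *akt*Δ/Δ and 19.01 CPM in WT cells. For *glula* the log2 ratios of vein over erythroid-like cells of the same library were 5.99 in *akt*Δ/Δ and 5.34 in WT cells. Those ratios compare cells of unlike depth, with medians of 29229 and 20254 UMIs in erythroid-like cells and 10506 and 6672 UMIs in vein cells. The erythroid list of 9 genes was itself at 1695 CPM in *akt*Δ/Δ vein cells and 4154 CPM in WT vein cells, and the part of such RNA in the differences was not tested.

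Depth differed between the libraries and changed how shares of cells compared. With all UMIs, *npl* was seen in 68.3% of *akt*Δ/Δ and 66.4% of WT vein cells and *apoeb* in 46.0% and 44.8%, and at 2000 UMIs per cell the shares were lower in *akt*Δ/Δ cells, at 35.1% and 41.96% for *npl* and 22.0% and 25.4% for *apoeb*. No ordering is read from the shares with all UMIs. When the vein cells too were chosen after thinning to 2000 UMIs, the log2 ratio of *glula* was -0.65, that of *crygn2* -0.37 with an interval from -0.87 to 0.12, and that of *apoeb* -0.05 (-0.24 to 0.14).

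The close relatives that were well detected were *glulb* and *tfe3a*. *glulb*, the other well detected glutamine synthetase gene, was lower in vein cells than in other endothelial cells, at 151 against 194 CPM in the *akt*Δ/Δ and 128 against 168 CPM in the WT library, and its ratio of *akt*Δ/Δ over WT vein cells was 0.24. *tfe3a*, of the same family as *tfec*, was at 59.3 CPM in *akt*Δ/Δ and 93.7 CPM in WT vein cells, with log2 ratios of vein over other endothelial cells of 0.72 and 0.86 and a ratio between genotypes of -0.66, close to that of *tfec*. *tfe3b* had vein ratios of 0.62 (-0.01 to 1.25) and 0.29 (-0.33 to 0.91). *mitfa*, with 54 *akt*Δ/Δ and 28 WT UMIs in vein cells, had vein ratios of 0.27 (-0.29 to 0.81) and -0.44 (-1.16 to 0.25). Its ratio between genotypes in vein cells was 0.86 (0.17 to 1.57), opposite in sign to that of *tfec*. *apoea* had 0 and 1 UMIs in vein cells, *glulc* 1 and 0, and *crygn1* 7 and 6, too few to show a pattern. Reads that the counting could not place between such relatives were not assessed.

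Lists of genes with related roles were examined in the same way, and a list gene counts as moved where its log2 ratio of vein over other endothelial cells was at least 1 in size, with the same sign, in both libraries. Over all genes 1.57% were higher and 3.27% lower by this rule. The all-gene median of that ratio was 0.02 in *akt*Δ/Δ and 0.02 in WT cells. Among genes that make, use or carry glutamine and glutamate, the median was -0.04 in *akt*Δ/Δ and 0.08 in WT cells. None of the 15 measured of 21 moved, a count that the low share over all genes also gives. The highest of them was *got2b*, a mitochondrial aspartate aminotransferase, at 0.83 and 0.98, followed by the asparagine synthetase gene *asns* at 0.51 and 0.72.

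Sialic acid and amino sugar genes, the pathway of *npl*, had a median of 0.58 in *akt*Δ/Δ and 0.82 in WT cells. Of 14 measured of 23, 2 were higher in vein cells past the limit and 1 lower. *gnpda1*, which turns glucosamine-6-phosphate into fructose-6-phosphate, had ratios of 1.23 in *akt*Δ/Δ and 1.59 in WT cells, and *renbp*, which interconverts N-acetylglucosamine and N-acetylmannosamine, 1.88 and 1.33. *slc17a5*, the lysosomal sialic acid exporter, was at 0.93 and 1.44 and *amdhd2* at 0.98 and 1.16. The lowest of the list were *gne*, which starts sialic acid synthesis, at -0.67 and -0.53, and the sialyltransferase gene *st3gal4* at -1.47 and -1.33. A later enzyme of synthesis, *nansa*, was level at -0.02 and 0.02.

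Factors of the *tfec* family and lysosomal genes had medians of 0.72 in *akt*Δ/Δ and 0.94 in WT cells. Of 26 measured of 33, 4 were higher past the limit and 1 lower. The protease gene *lgmn* was at 1.58 in *akt*Δ/Δ and 1.78 in WT cells, *ctsz* at 1.16 and 1.60, the membrane protein gene *lamp1a* at 1.12 and 1.46 and *lamp2* at 1.14 and 1.21. *ctsk* was the exception, at -1.23 and -1.24. Between genotypes this list was close to level in vein cells, with a median of -0.07. Of its 26 measured genes 2 were lower by 0.5 and 3 higher, where over all genes 18.6% were as much lower and 9.18% as much higher.

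Lipoprotein and cholesterol transport genes had medians of -0.02 in *akt*Δ/Δ and 0.14 in WT cells, and none of 15 measured of 31 passed the limit, which *apoeb* did not pass either. The cholesterol-binding lysosomal gene *npc2* was highest at 0.74 and 1.05, and the lipoprotein receptor gene *scarb1* was at 0.46 and 0.92. *apoc1*, nearest to *apoeb* over clusters, was at -0.53 and 0.39. In the comparison of *akt*Δ/Δ with WT vein cells, 6 of the 14 measured were lower by at least 0.5 and 2 higher, with a median of -0.41. Over all genes 18.6% were as much lower and 9.18% as much higher, with a median of -0.09. The sialic acid list had 4 of 14 lower and 1 higher, and the venous list 4 of 21 lower and 0 higher. The glutamine list had 2 of 15 lower and 0 higher, and the connexins (6 measured) and crystallins (7 measured) had 0 in either direction. The cholesterol exporters *abca1a* and *abca1b* were at -1.23 and -1.19, and *apoc2*, an activator of lipoprotein lipase, was at 2.44 (1.76 to 3.18) from 142 UMIs.

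Of 30 connexin names, 19 matched 1 symbol each and 7 were measured, and none of these was higher past the limit. The names include *gjb8*, another symbol of *cx30.3* itself. The arterial connexin genes *gja5a* and *gja5b* were lower in vein cells, at -2.17 and -3.95 in *akt*Δ/Δ and -1.69 and -4.16 in WT cells. Among crystallins, 7 of 28 were measured, none higher and 2 lower, namely *cryba4* at -2.18 and -1.41 and *crygs4* at -1.16 and -1.12. Other members stood higher in vein cells without passing the limit, among them *cryl1* at 0.67 and 0.78 and *cx35.4* at 0.49 and 0.25. The crystallin list had medians of 0.30 and 0.24. Both are the values of *cryz*, with intervals of -0.39 to 0.98 and -0.37 to 0.85, so no shift of that list is read from them. The venous and scavenger list, which includes *stab2*, *dab2* and *lyve1b*, had 9 of 21 measured genes past the limit, *lgmn* again among them, led by *lyve1a* at 4.01 and 3.58.

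**Figure D5:**
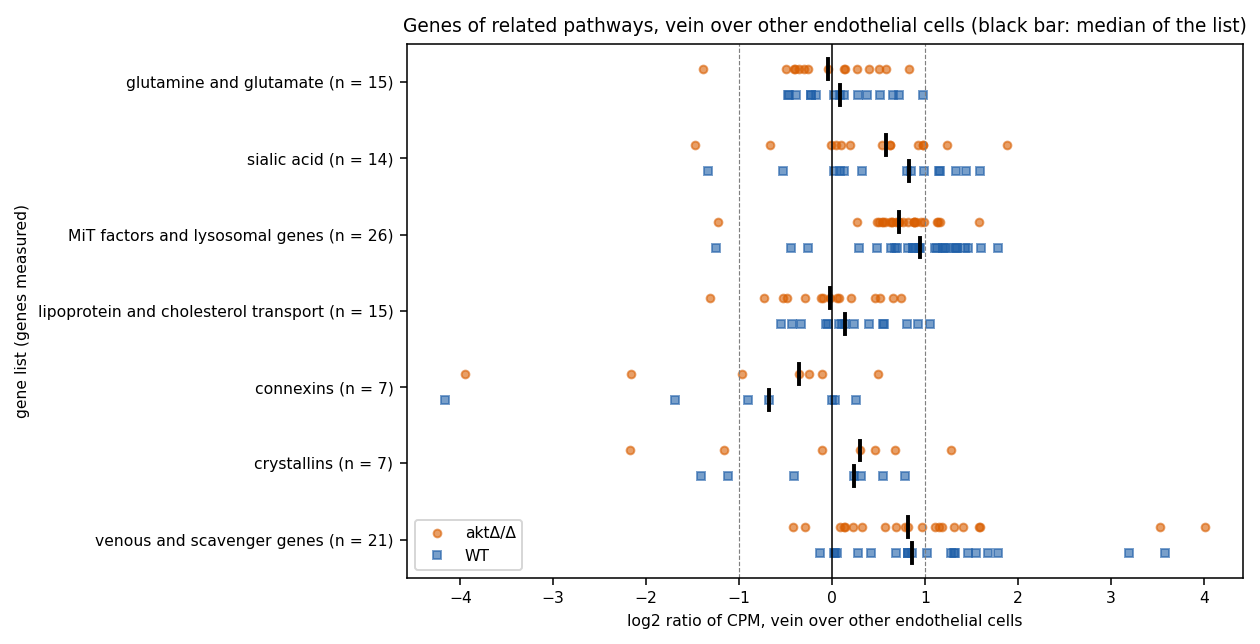
Log2 ratio of CPM in vein over other endothelial cells (x axis) for the measured genes of each list, for the *akt*Δ/Δ and the WT library, with the list medians marked. The sialic acid list (medians 0.58 and 0.82), the lysosomal list (0.72 and 0.94) and the venous list (0.82 and 0.86) lie to the right of the all-gene median of 0.02. The glutamine list has medians of -0.04 and 0.08. The crystallin medians (0.30 and 0.24) are the values of *cryz*, whose intervals cross 0.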

How the data were processed

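The authors deposited, per library, whole UMI counts of genes by cells, not normalized, written by Cell Ranger 5.0.0 with cell-containing droplets already selected. Which genome build and annotation they counted against is not given in the sources used here, and 216 symbols are repeated. Cells needed 200 detected genes and genes 3 cells (leaving 9462 *akt*Δ/Δ and 16398 WT cells). In Seurat 5.3.0 under R 4.3.3 the merged libraries were log-normalized to 10000 UMIs and clustered with 2000 variable genes and 30 principal components at resolution 0.6, without integration. Doublets were not removed. Removal with Scrublet in scanpy 1.11.5 was an alternative chosen after seeing the data. Clusters were named from marker lists, with 1 exception. Cluster 18 had raised levels of 8 epidermal markers, against 2 of the next list, but was left unnamed because ion transport genes led it.

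Counts were summed per class and library in Python 3.11.15 with exact Poisson, Clopper-Pearson and binomial 95% intervals (scipy 1.17.1), which cover counting error only and were checked on simulated counts. PCR copies were already collapsed by UMI. With 1 library per genotype no count model was fitted. Genes needed 20 UMIs in each library for a ratio between classes, or over both for one between genotypes. TMM factors came from edgeR 4.0.16. The members and lists were chosen with earlier results of these data known. Genes named besides the members are the 3 most alike over clusters, the highest 4 and lowest 2 of each list, close paralogs and genes that serve as markers. *lamp2*, *nansa*, *abca1a*, *abca1b* and *apoc2* fall outside that rule and were named after their values were seen. No sequences were printed because the tables used here hold none.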

Additional observations from a re-analysis of the deposited data

Results flagged for a closer look

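For 4 of the genes the ratio of *akt*Δ/Δ over WT cells had opposite signs in vein cells and in another endothelial class with both intervals clear of 0, and with 1 library per genotype the difference was not tested. How many of all genes meet this rule was not computed, so the count is not set against other genes. The intervals cover counting error only. *npl*, at -0.40 in vein cells, was at 0.10 in other endothelial cells, at 0.32 in artery cells and at 0.52 in the few cells with both marker sets. *apoeb*, at -0.11 in vein cells, was at 0.42 in other endothelial cells, at 1.34 in artery cells, at 0.32 in cells with both marker sets and at 0.30 in cells with neither full set. *tfec* was at 0.46 in artery cells, against -0.69 in vein cells, and *crygn2* at 1.26, against -0.61. The classes other than vein also hold cells of clusters 1 and 12. Over the endothelial clusters other than 1 and 12, vein cells included, *apoeb* was at -0.05 (-0.16 to 0.05) and *npl* at 0.07 (-0.02 to 0.15). Over clusters 1 and 12 together they were at 0.23 and -0.25.

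The artery values rest on few cells. *apoeb* had 765 UMIs in 401 *akt*Δ/Δ artery cells and 252 in 487 WT artery cells, and 1 *akt*Δ/Δ cell held 136 of the 765. Of the artery cells, 33 *akt*Δ/Δ cells (8.23%) and 19 WT cells (3.901%) lay in the venous clusters 1 and 12. In the artery cells outside those clusters the ratio was 0.54 for *apoeb* (0.26 to 0.82), 0.12 for *npl* (-0.18 to 0.42) and -0.41 for *tfec* (-1.03 to 0.19), and that of *crygn2* came from 19 UMIs in *akt*Δ/Δ and 6 in WT cells.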

How the results depend on the processing

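No paired analysis was possible because each genotype had 1 library. The count of genes with a log2 ratio of at least 1 in vein over other endothelial cells of both libraries was 2 instead of 5 when 2 of the 3 markers were enough to call a vein cell. The count lower in *akt*Δ/Δ vein cells was 1 instead of 4 when a log2 ratio of -1 was required, and stayed at 3 or 4 under the 16 other alternatives. With all UMIs, 2 of the genes were seen in a larger share of *akt*Δ/Δ than of WT vein cells, and 0 were at 1000, 2000 or 5000 UMIs per cell. Shares over all genes were computed for the main folds and, between genotypes, also for genes with at least 200 UMIs. For the other settings and for these shares of cells they were not computed, so those counts are not set against other genes. The ratio of *apoeb* between genotypes changed sign in 4 settings, to 0.018 with endothelial cells taken by *kdrl* or *cdh5*, to 0.029 at 1000 UMIs per cell (-0.37 to 0.42), to 0.23 with the venous clusters in place of the markers and to 0.21 in vein cells of cluster 1 alone. Over the alternatives the ratio ran between -0.97 and -0.65 for *glula*, -0.44 and -0.21 for *npl*, -0.75 and -0.49 for *tfec*, -1.23 and -0.62 for *cx30.3*, and -1.38 and -0.18 for *crygn2*. Outside the endothelial clusters the ratio of *cx30.3* was -1.07 without cluster 13, instead of -1.77. TMM scaling moved all genotype ratios in vein cells by 0.08. The causes of these shifts were not tested. Thinning to 2000 UMIs left 651 *akt*Δ/Δ and 1440 WT vein cells, which limits the least abundant genes.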
